A study of Capra hircus with 8 samples.

Results

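The kallikrein-related peptidases are secreted serine proteases that are made as inactive precursors and work as a cascade. In skin they are released by keratinocytes of the upper epidermis and of the hair canal, where they cut the corneodesmosomes that hold dead surface cells together, so that these cells can be shed. They are held in check by Kazal-type inhibitors, of which LEKTI (gene SPINK5) is the best known, and its loss causes Netherton syndrome, with overactive kallikreins and abnormal hair. The 6 genes described here are KLK5, KLK7, KLK8, KLK10, KLK11 and KLK13, taken by symbol from a count table of 18815 genes expressed in goat skin. All 6 were in the table (gene18276, gene18278, gene18279, gene18281, gene18283 and gene18285), which holds 12 numbered kallikreins in all. The members were chosen by name with their breed differences in these counts known, so the breed values are given as a description and support nothing.

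Skin of cashmere goats, a type bred for its soft down, and of milk goats was profiled by sequencing of polyadenylated RNA at months 3, 6, 9 and 12. There was 1 library per breed and month, 8 in all, and the labels name no treatment and no strain within a breed. The labels give the month as an age while the design speaks of months, the extraction text mentions an embryo although the samples are skin, and the number of animals behind a library is not stated. The p-values therefore measure only the spread between these libraries. Library totals were 7480053 to 8718429 reads in cashmere goats and 11333734 to 13899750 in milk goats. Levels are given as CPM, read counts scaled to a common library size, after TMM scaling for library composition. The TMM factors were 0.99 to 1.13 except in the milk library of month 9, where the factor of 0.783 raises every CPM relative to library totals or FPKM. A gene with 0 reads could have had up to 3, or 0.231 to 0.395 CPM in these libraries, by counting error alone. In bulk skin, fewer cells of a type and less RNA per cell cannot be told apart. The labelled tissue was checked on keratinocyte genes, and KRT5 and KRT14 of the basal layer averaged 8819.8 and 6212 CPM in cashmere goats and 7899 and 5606 CPM in milk goats.

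The 6 genes lie in 1 run of 12 kallikrein genes on goat chromosome 18, in the order KLK15, KLK4, KLK5, KLK6, KLK7, KLK8, KLK9, KLK10, KLK11, KLK12, KLK13 and KLK14 in the RefSeq annotation of assembly ARS1.2, where all 12 symbols were matched. The build the authors used is not given in the sources used here, so no coordinates are given. The order of levels was read on the FPKM scale, which is per length. KLK7, the chymotrypsin-like stratum corneum enzyme, was highest at 132 ± 42.9 FPKM in cashmere goats and 47.3 ± 24.4 in milk goats (SD, n = 4). KLK10, a kallikrein of keratinocytes, followed at 84.1 ± 35.6 and 28.7 ± 18.0 FPKM. KLK7 lay above KLK10 in 8 of 8 libraries, and KLK10 above KLK5 in 8 of 8.

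KLK5, the trypsin-like stratum corneum enzyme that can activate itself and KLK7, had 29.65 ± 11.2 FPKM in cashmere goats and 12.0 ± 3.27 in milk goats. KLK11, another trypsin-like member, had 25.355 ± 3.41 and 14.9 ± 4.49 FPKM. These neighbours in the order did not separate, since KLK5 was above KLK11 in only 2 of 8 libraries, although its mean over the 8 was slightly higher, at 20.8 against 20.1 FPKM. KLK13 (2.555 ± 1.33 and 1.05 ± 0.540 FPKM) and KLK8 (2.34 ± 1.45 and 1.10 ± 0.501 FPKM) were rare, and KLK13 exceeded KLK8 in 5 of 8 libraries. KLK7 and KLK10 together made up 65.3% to 81.6% of the summed FPKM of the 6 genes. That share was highest at month 9 in each breed, at 81.6% in cashmere goats and 80.2% in milk goats.

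The breed values of the 6 genes are given first by library and then as fitted fold changes. KLK7 stood at 246, 393, 561 and 351 CPM in cashmere goats at months 3, 6, 9 and 12, and at 114, 175, 304 and 66.8 CPM in milk goats. The cashmere library was the higher in each month, but the groups overlapped in CPM, because the milk library of month 9 exceeded the cashmere library of month 3. On FPKM and by library totals they did not overlap, but the share of all genes without overlap was not counted on these scales. The median breed log2 fold change of all genes was 0.16 with log2(FPKM + 1), 0.14 by library totals and 0.03 with TMM. For KLK7 the fitted difference was 2.60-fold (log2 fold change 1.38 ± 0.26 SE).

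KLK10 stood at 189, 264, 528 and 352 CPM in cashmere goats and at 65.9, 131, 288 and 66.2 CPM in milk goats. It showed the same kind of overlap, with the milk library of month 9 above the cashmere libraries of months 3 and 6, and a fitted difference of 2.73-fold (1.45 ± 0.27). KLK5 stood at 47.6, 99.9, 101 and 52.0 CPM in cashmere goats and at 32.8, 40.6, 44.2 and 22.5 CPM in milk goats. In CPM it was the 1 member whose 4 cashmere libraries all lay above the 4 milk libraries, and its fitted difference was 2.09-fold (1.06 ± 0.16). Such a separation in this direction was seen in 6.46% of the 14085 tested genes.

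KLK11 stood at 42.5, 62.2, 60.3 and 61.5 CPM in cashmere goats and at 31.4, 47.2, 49.7 and 25.3 CPM in milk goats, a fitted difference of 1.51-fold (0.59 ± 0.18). Its cashmere level was nearly level from month 6 on, and the groups overlapped in CPM through the cashmere library of month 3. They did not overlap on FPKM or by library totals, where the share of all genes without overlap was not counted. KLK13, a protease with a role described in squamous epithelia, stood at 3.78, 8.31, 12.9 and 5.40 CPM in cashmere goats and at 3.01, 4.54, 5.98 and 1.15 CPM in milk goats (2.12-fold, 1.08 ± 0.31). Its groups overlapped, with the milk library of month 9 above the cashmere libraries of months 3 and 12. KLK8, also called neuropsin, stood at 1.83, 6.50, 3.44 and 1.98 CPM against 1.95, 2.16, 2.76 and 0.617 CPM (1.78-fold, 0.84 ± 0.38). It rested on 7 to 54 reads per library, and at month 3 the milk library was the higher in CPM, while its FPKM was 1.28 against 1.33 in the cashmere library.

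All 6 members passed the filter on low counts. With edgeR's quasi-likelihood test, 3 of the 6 (KLK5, KLK7 and KLK10) passed an adjusted p of 0.05 as higher in cashmere goats, where 1.47% of all tested genes did, and 0 as lower, where 3.32% did (4.79% in either direction). At an unadjusted p under 0.05 there were 5 of the 6 and 26.9% of all genes. The count of 3 was 0 with any library of months 3, 6 or 9 left out, where the count over all genes went from 675 to between 0 and 4, and 0 without the month term, where 346 of all genes passed. Since the members were chosen with this contrast known, nothing is read from any of these counts. Cashmere exceeded milk in all 4 months for 5 of the 6, a pattern found in 19.6% of tested genes. The median log2 fold change of the 6 was 1.07, beside 0.03 over all tested genes.

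**Figure D1:**
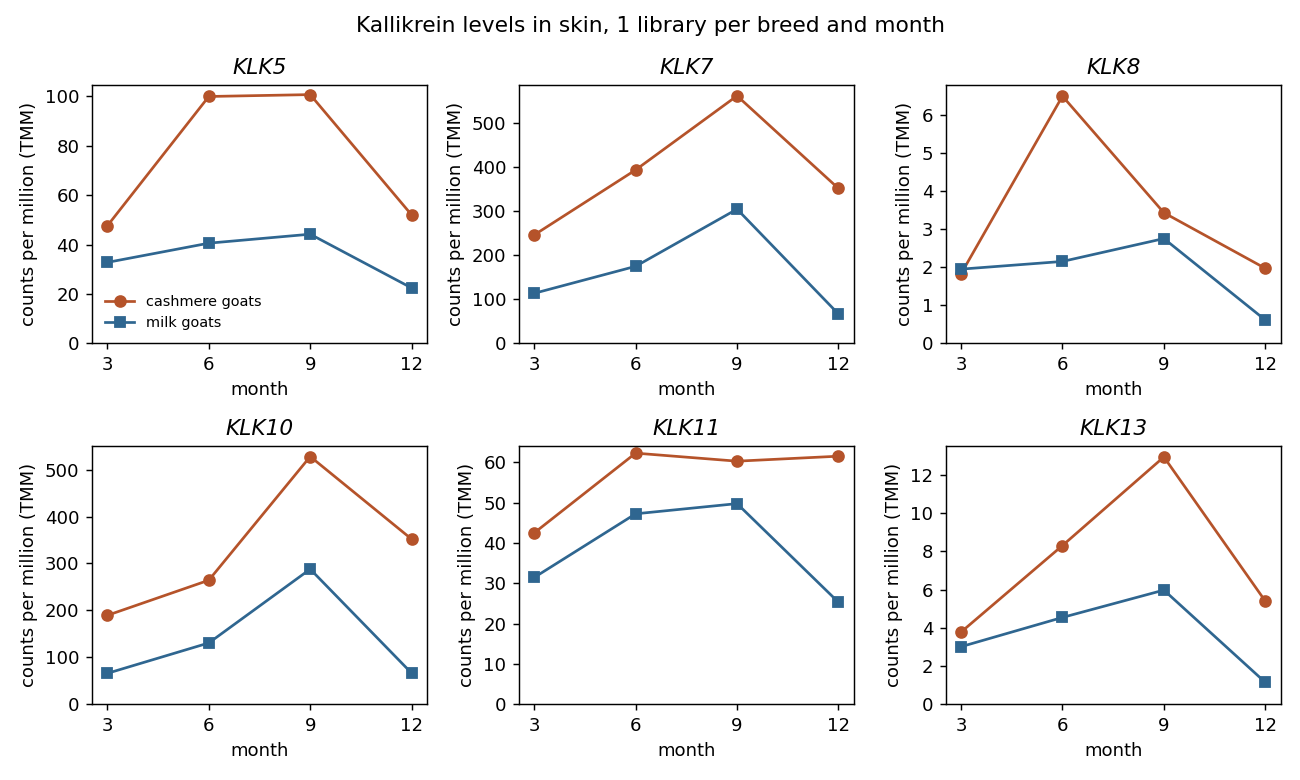
Level of each of the 6 kallikreins in TMM-scaled CPM (y axis, from 0) against month (x axis), with cashmere goats as circles and milk goats as squares; each point is 1 library, so there are no error bars. On this scale all 6 milk goat curves are highest at month 9, which on FPKM holds for KLK7 and KLK10 only, and at month 12 KLK7 is at 66.8 CPM against 351 CPM in cashmere goats.

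The breed ratio was not even over the months. Each ratio within a month sets 1 library against 1 and has no test, and its 95% exact (Clopper-Pearson) interval covers counting error only. For KLK7 the cashmere to milk ratio was 2.16, 2.25, 1.84 and 5.26 at months 3, 6, 9 and 12, and for KLK10 it was 2.88, 2.02, 1.83 and 5.31. The month 12 interval of KLK7 on the log2 scale was 2.28 to 2.51, and that of KLK10 was 2.29 to 2.53, above the intervals of their other months. KLK13 was at 4.71-fold in month 12 (log2 interval 1.31 to 3.26), on 41 and 13 reads. That interval overlapped those of its month 6 (0.35 to 1.40) and month 9 (0.66 to 1.58). KLK11 was at 2.43-fold in month 12 (1.07 to 1.50), against 1.35, 1.32 and 1.21 in its earlier months. On FPKM the month 9 ratios were higher, at 2.52 for KLK7 and 2.51 for KLK10, and those of month 12 were 6.03 and 6.10. KLK5 departed from this, with ratios of 1.45, 2.46, 2.28 and 2.32, so that month 3 was its low point and month 12 did not stand out. KLK8 had ratios of 0.937, 3.01, 1.25 and 3.20, with intervals that included equality at months 3 and 9.

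Without the milk library of month 12 the fitted log2 difference was 1.03 for KLK7, 1.11 for KLK10 and 0.99 for KLK5. KLK11 went from 0.59 to 0.35 without that library and to 0.37 without the cashmere library of month 12. KLK8 went from 0.84 to 0.50 without the milk library of month 6 and to 0.54 without the cashmere library of that month. With month as a term, leaving out a library also takes its partner of that month out of the breed difference. Runs without the cashmere or the milk library of a month are therefore nearly the same fit and no separate checks.

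**Figure D2:**
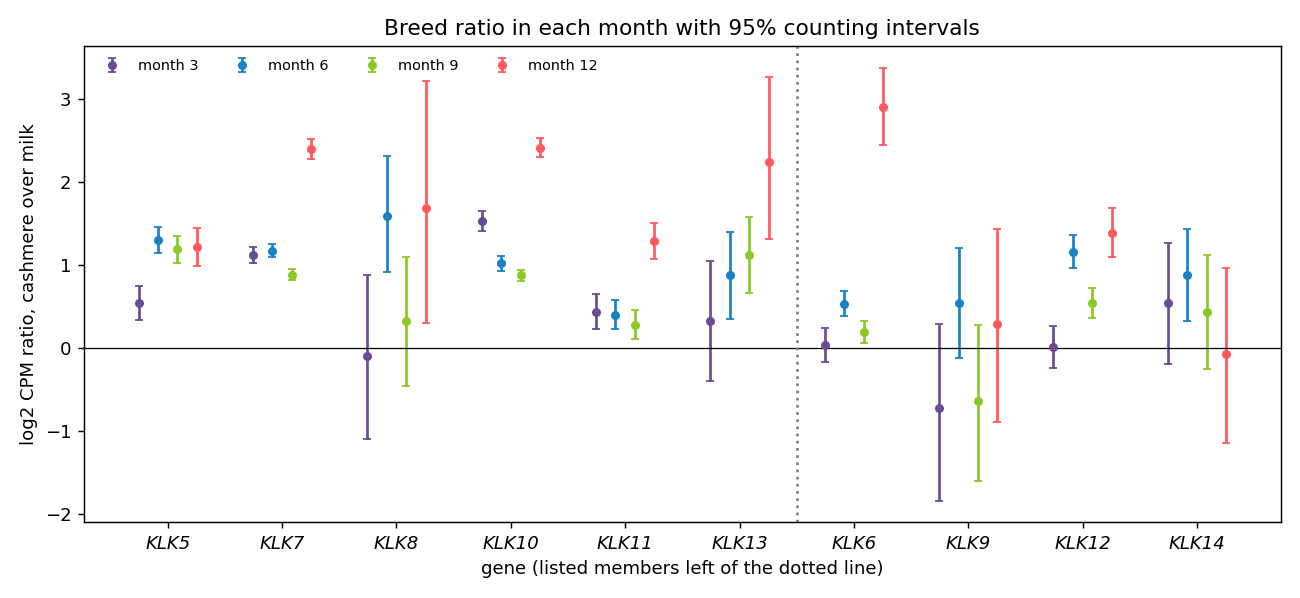
Log2 ratio of CPM, cashmere over milk (y axis), for the 10 tested kallikreins (x axis) in each month (colours), as 1 library against 1 with 95% counting intervals; the 6 listed genes are left of the dotted line. KLK7 and KLK10 reach 2.39 and 2.41 at month 12, while KLK5 stays between 0.54 and 1.30.

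Across months, the 6 genes were compared between months 6 and 9 and months 3 and 12, a division chosen with earlier results of these data known. In milk goats KLK7 and KLK10 were highest at month 9 in TMM-scaled CPM, by library totals and on FPKM. The milk peak of the other 4 depended on the scale. In CPM it was at month 9, while on FPKM KLK5 (15.31 at month 6 and 12.69 at month 9), KLK8 (1.40 and 1.36) and KLK11 (20.2 and 16.2) peaked at month 6 and KLK13 tied at 1.46. In milk goats the lowest month was month 12 for all 6 on FPKM and by library totals, and for all but KLK10 in CPM. In cashmere goats KLK7, KLK10 and KLK13 were highest at month 9 and lowest at month 3 on each of the 3 scales, and KLK8 and KLK11 were highest at month 6. KLK5 was highest there at month 9 in CPM and FPKM and at month 6 by library totals. The lowest cashmere month of KLK5 and KLK8 was month 3 in CPM and month 12 on the other scales. For KLK5, KLK7, KLK8 and KLK13 both libraries of months 6 and 9 lay above both of months 3 and 12 within each breed in CPM, a pattern of 6.65% of tested genes. On FPKM KLK11 joined them, and by library totals KLK5 left. For KLK8 alone all 4 libraries of months 6 and 9 lay above all 4 of months 3 and 12, on each of the 3 scales, which in CPM 2.20% of tested genes showed. In CPM the range over the months, highest over lowest, was widest in milk goats for KLK13 (5.22-fold), KLK7 (4.55-fold), KLK8 (4.47-fold) and KLK10 (4.37-fold). It was narrowest in cashmere goats for KLK11 (1.47-fold).

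The fitted log2 difference of months 6 and 9 over months 3 and 12, with breed as a term, was 1.27 ± 0.32 for KLK13, 1.15 ± 0.39 for KLK8, 1.10 ± 0.37 for KLK10 and 1.04 ± 0.28 for KLK7. It was 0.81 ± 0.16 for KLK5 and 0.50 ± 0.17 for KLK11. None of the 6 passed with edgeR over all genes (adjusted p = 0.221 to 0.294), nor did any of the 14085 genes (0%). At an unadjusted p under 0.05 there were 6 of the 6 and 13.4% of all genes. DESeq2 called KLK5, KLK7 and KLK13 among 288 genes. The median of the 6 was 1.07, beside -0.02 over all tested genes.

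An edgeR test of any difference among the 4 months gave adjusted p = 0.324 to 0.456 for the 6 genes, and no gene of the table passed (0%). At an unadjusted p under 0.05 there were 4 of the 6 members and 13.4% of all genes. DESeq2 called KLK5, KLK7 and KLK10 among 536 genes. The counts moved with the libraries of month 12. Without the cashmere library of month 12, KLK7, KLK10, KLK11 and KLK13 passed (lowest adjusted p = 0.0162), as did 1180 genes in all, and without the milk library of that month 109 genes and none of the 6 passed.

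Whether the course differed between the breeds was asked with an interaction term. The mean of months 6 and 9 over that of months 3 and 12 was 0.55 on the log2 scale for KLK10 in cashmere goats and 1.66 in milk goats, and 0.68 and 1.41 for KLK7. KLK5 went the other way, at 1.01 and 0.62. No member passed the interaction test with edgeR (adjusted p = 0.99992 for each), and no gene did (0%), with 0 of the 6 and 3.39% of all genes at an unadjusted p under 0.05. DESeq2 called none of the 6 and 100 genes. The interaction of KLK10 was -1.11 ± 0.65 and that of KLK7 -0.73 ± 0.53, so neither a difference between the courses nor its absence was shown.

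Among the 15 pairs of members Pearson's r of log2 CPM over 8 libraries ran from 0.64 (KLK8 with KLK10) to 0.97 (KLK7 with KLK10), with a median of 0.89. The members' r with the 14079 other tested genes had a median of -0.01 and lay between -0.83 and 0.87 for the middle 90% of values. Within the 4 milk libraries the pairs ran from 0.69 to 0.998 (median 0.95), and within the 4 cashmere libraries from 0.17 to 0.98 (median 0.71). With only 4 libraries r spreads widely. The middle 90% of the members' r with the other genes lay between -0.95 and 0.95 in milk and between -0.92 and 0.93 in cashmere libraries. These are descriptions, since the points share their library and its scaling, and breed is part of the variation. Of 10793 genes with a symbol and at least 5 CPM on average, those most like KLK7 were DEDD2, ANKRD13B and DIRC2 (r = 0.99 each). Those most like KLK10 were HSPA14 (r = 0.999), GNA15 and BMP8A (0.99 each), and those most like KLK5 were TPP1 (0.99), SGTA (0.98) and TPRN (0.97). KLK11 came closest to AURKB, CBARP and POLR1B (each 0.99), KLK13 to AMMECR1L (0.99), UBE2H and PDE12 (both 0.98), and KLK8 to OGDH (0.97), KLK12 and CCDC86 (both 0.95).

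The other kallikreins of the run are given for comparison, and differences between them and the 6 members were not tested. KLK12, a trypsin-like member, stood at 46.2 ± 19.4 CPM in cashmere goats and 27.2 ± 11.9 in milk goats (0.77 ± 0.23, edgeR adjusted p = 0.0929), and its median r with the 6 members was 0.93. KLK6, first known from brain but also made in skin, had 38.7, 84.6, 94.6 and 31.5 CPM in cashmere goats and 37.9, 58.7, 82.9 and 4.23 CPM in milk goats. The cashmere to milk ratio of KLK6 was 1.02, 1.44 and 1.14 at months 3, 6 and 9 and 7.44 at month 12 (log2 interval 2.44 to 3.38). On FPKM it stood at 30.87 against 20.63 at month 6 and at 34.67 against 22.18 at month 9. KLK6 did not pass (0.78 ± 0.42, edgeR adjusted p = 0.277). With the milk library of month 12 left out its log2 value was 0.23 (edgeR adjusted p = 0.331), and with the cashmere library of that month left out 0.25 (0.270).

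KLK14, a trypsin-like activator of the cascade, had 4.47 ± 2.32 and 3.05 ± 0.914 CPM (0.48 ± 0.26, adjusted p = 0.274). KLK9 had 2.43 ± 1.60 and 2.46 ± 0.819 CPM (-0.11 ± 0.33, adjusted p = 0.864), with a median r to the members of 0.42. KLK4, a protease of tooth enamel, had at most 12 reads in a library and KLK15 at most 1, and both fell below the filter. Of the 4 other kallikreins that were tested, 0 passed with edgeR. At an unadjusted p under 0.05 there was 1, where 26.9% of all genes were. DESeq2 called 1, among 1691 genes in all, and the gene was KLK12 in each case. Among the 8 protein-coding genes on each side of the run, 4 could be tested, SHANK1, CLEC11A, C18H19orf48 and CTU1. Their log2 fold changes ran from 0.11 to 0.44 and 0 passed.

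**Figure D3:**
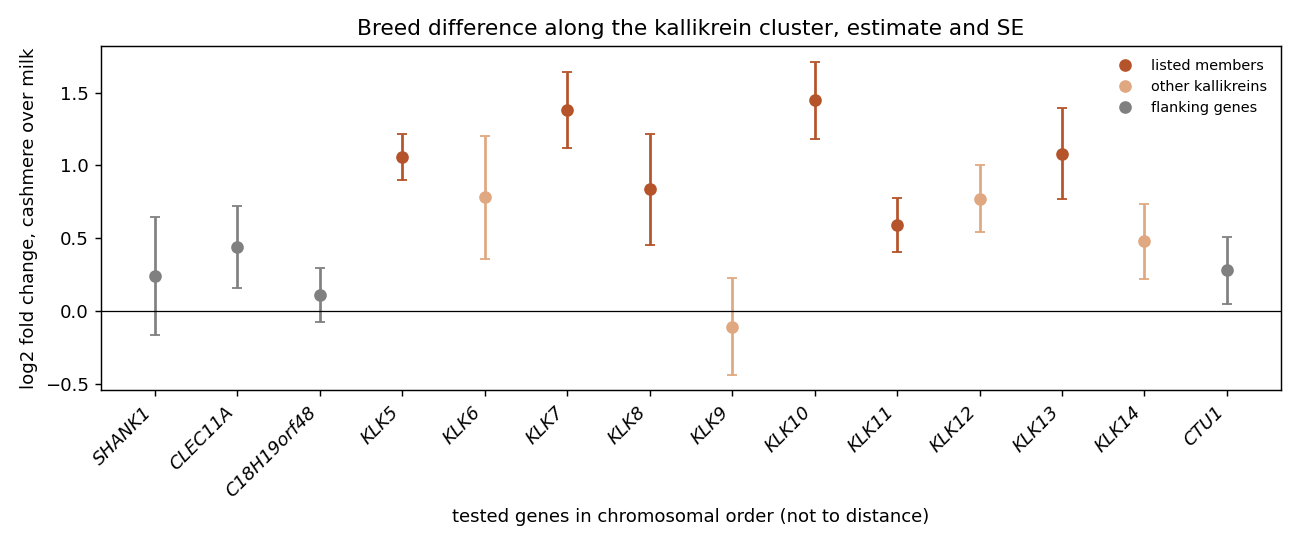
Fitted log2 fold change, cashmere over milk, with its SE (y axis), for tested genes in their chromosomal order (x axis, not to distance), with the 6 listed kallikreins dark, the other kallikreins light and flanking genes grey. KLK10 is highest at 1.45, KLK9 lies at -0.11, and the 4 flanking genes lie between 0.11 and 0.44.

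Upstream of the kallikreins, the list of activating and partner proteases had 8 tested members, of which 1 was higher and 0 lower in cashmere goats (median 0.21), against 1.47% and 3.32% of all tested genes. With edgeR 3 of the 8 were at an unadjusted p under 0.05, beside 26.9% of all genes. PRSS8, the membrane protease prostasin of the epidermal barrier, was 2.12-fold higher (1.08 ± 0.19, edgeR adjusted p = 0.0340), at 31.7 ± 11.5 against 14.9 ± 4.70 CPM. It stayed past the threshold without either month 12 library (adjusted p = 0.0354 and 0.0386) and not without any other library (0.0852 to 0.120), nor without the month term. In the runs without a library of months 3, 6 or 9 the calls over all genes fell from 675 to between 0 and 4. The loss of PRSS8 there is therefore not particular to it. ST14, the membrane protease matriptase that can activate kallikrein precursors, was at 61.9 ± 3.14 and 49.98 ± 8.82 CPM and did not pass (0.32 ± 0.13, adjusted p = 0.159). PRSS27, a keratinocyte serine protease named after its values were seen, was at 19.98 ± 14.2 and 3.86 ± 4.10 CPM (2.59 ± 0.63, edgeR adjusted p = 0.0618). It was 1.84 without the cashmere library of month 12 (adjusted p = 0.0427), 1.79 without the milk library of that month (0.0452) and 3.36 without the cashmere library of month 6 (0.101). It passed with library totals (adjusted p = 0.0404), without a filter (0.0383), with DESeq2 (0.0106) and with limma on FPKM. In the authors' second count table, which uses another gene set, PRSS27 passed (2.84 ± 0.60, adjusted p = 0.0360).

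Of 10 tested substrates and receptors, 3 were higher and 0 lower in cashmere goats (median 0.34), against 1.47% and 3.32% of all tested genes. With edgeR 4 of the 10 were at an unadjusted p under 0.05, beside 26.9% of all genes. CDSN, the corneodesmosin that KLK5 and KLK7 cut, was 1.88-fold higher (0.91 ± 0.20, edgeR adjusted p = 0.0496). It stood at 436, 678, 1151 and 794 CPM in cashmere goats and at 243, 419, 746 and 284 CPM in milk goats, with the same month 9 maximum as KLK7. Its call was lost with RLE scaling, in a model without the month term and with each library left out in turn, except the cashmere library of month 12 (adjusted p = 0.0498 without it). Without a library of months 3, 6 or 9 the calls over all genes also fell, from 675 to between 0 and 4. F2RL1, the protease-activated receptor PAR2 that KLK5 can activate, was 1.84-fold higher (0.88 ± 0.15, edgeR adjusted p = 0.0325). It stood at 35.4 to 67.0 CPM against 24.9 to 33.1 CPM. The groups did not overlap, a separation in this direction that 6.46% of all tested genes showed.

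SMPD1, the acid sphingomyelinase of barrier lipid processing, was 1.60-fold higher (0.68 ± 0.13, adjusted p = 0.0379). F2RL1 kept its call without either month 12 library (adjusted p = 0.0347 and 0.0376) and SMPD1 without the cashmere library of month 12 only (0.0427). F2RL1 and SMPD1 lost it when a library of another month was left out, as did nearly all of the 675 genes called in the full fit. SMPD1 also lost it without the month term or the milk library of month 12. The desmosomal cadherins DSG1 (0.46 ± 0.23, adjusted p = 0.238) and DSC1 (0.22 ± 0.17, adjusted p = 0.439), which these proteases also cut, did not pass. In the second count table F2R (the thrombin receptor PAR1), F2RL1 and SMPD1 of 10 tested members passed as higher, and 2.97% of all its genes did. F2R did not pass in the first table (0.60 ± 0.15, edgeR adjusted p = 0.0622). Its mean was 89.6 against 59.1 CPM in the first table and 14.0 against 6.89 CPM in the second.

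Among the 10 epidermal protease inhibitors tested in the first table, 0 passed with edgeR (median 0.36), where 4.79% of all genes did. At an unadjusted p under 0.05 there were 4 of the 10, where 26.9% of all genes were. DESeq2 called 1 as higher, among 604 such genes in all. The most abundant were CST6, the cystatin M/E of the cornified layer, at 0.38 ± 0.21 (adjusted p = 0.273), and SERPINB5, the serpin maspin, at 0.34 ± 0.15 (adjusted p = 0.194). SPINK5 and SPINK6 are not listed by symbol in that table and were read in the second count table, which tested 14 inhibitors. There 1 passed as higher and 2 as lower in cashmere goats, against 2.97% and 4.48% of its genes (7.45% in either direction).

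SPINK6, a Kazal-type inhibitor of kallikreins, was 7.44-fold lower in cashmere goats (-2.89 ± 0.39, edgeR adjusted p = 0.0163). It stood at 2.06, 1.95, 0.629 and 0.556 CPM in cashmere goats at months 3, 6, 9 and 12 and at 14.7, 9.82, 2.72 and 12.3 CPM in milk goats. Every milk library lay above every cashmere library, on 57 to 368 reads against 8 to 34, a separation in this direction that 8.02% of the first table's tested genes showed. For the second table, in which SPINK6 and SPINK5 were read, this share was not counted. With 1 library left out the log2 value stayed between -3.12 and -2.48. The call held without a library of month 6 or 12 and was lost without one of month 3 or 9. Leaving out either library of a month gives nearly the same fit, so the 8 runs amount to 4. In the runs that lost the call, 11 to 17 genes of the second table passed in all. SPINK5, the main inhibitor of KLK5, KLK7 and KLK14, stood at 3634, 4054, 5456 and 4953 CPM in cashmere goats and at 6010, 5610, 12883 and 10864 CPM in milk goats. These groups did not overlap, but SPINK5 did not pass (1.86-fold lower, -0.89 ± 0.27, edgeR adjusted p = 0.0797). DESeq2 gave adjusted p = 4.72e-05 and called 2534 genes of the second table. The SPINK5 entry held 58319 to 269496 reads per library, and whether it holds reads of other genes was not tested.

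SLPI, the secretory leukocyte protease inhibitor, which blocks KLK7, was 2.98-fold higher in cashmere goats (1.57 ± 0.35, edgeR adjusted p = 0.0397), at 6.04 ± 2.93 against 2.24 ± 1.60 CPM. The SLPI groups overlapped, with the milk libraries of months 6 and 9 (3.22 and 3.97 CPM) above the cashmere library of month 3 (2.49 CPM). SERPINB8, an intracellular serpin, was 1.45-fold lower (-0.54 ± 0.13, edgeR adjusted p = 0.0493). Neither SLPI nor SERPINB8 was fitted again with a library left out. Of the 4 members listed in the second table, KLK5 had a log2 fold change of 1.25 ± 0.19, KLK10 of 1.52 ± 0.24, KLK8 of 1.01 ± 0.35 and KLK13 of 0.98 ± 0.36. These are the same libraries counted on another gene set and are no separate support.

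**Figure D4:**
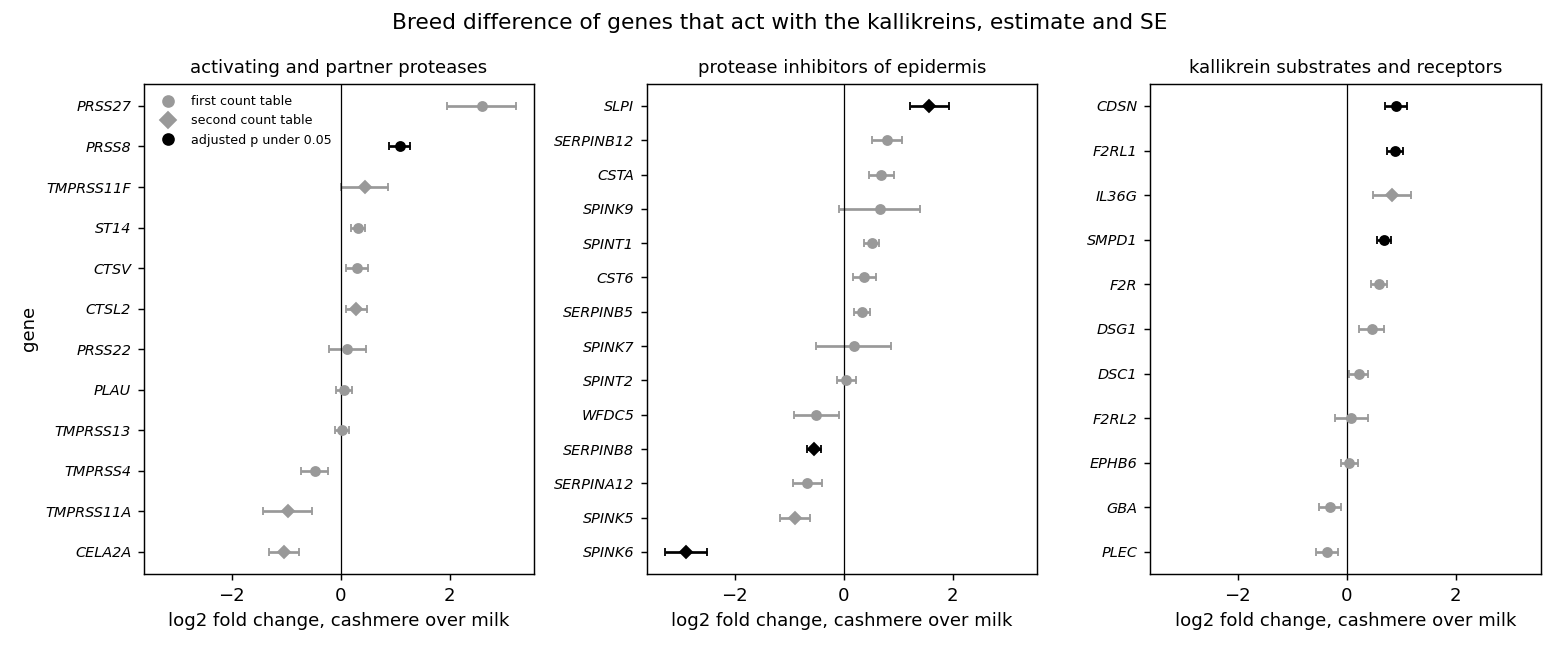
Fitted log2 fold change, cashmere over milk, with its SE (x axis), for tested genes (y axis) of 3 lists; circles are from the first count table, diamonds are genes found only in the second, and black marks pass an adjusted p of 0.05. PRSS8, CDSN, F2RL1, SMPD1 and SLPI lie to the right, and SPINK6 lies farthest left at -2.89; CTSL2 is an older symbol of CTSV.

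Markers of the cell types in skin are given beside these values, and their part in them was not tested. The counts are read against all tested genes, of which 1.47% were higher, 3.32% lower and 26.9% at an unadjusted p under 0.05 with edgeR. DESeq2 called more of all genes, 604 as higher and 1087 as lower, and its counts are read against these. Of 43 tested genes of the granular and cornified layers 0 passed between the breeds with edgeR (24 positive, median 0.10), 11 were at an unadjusted p under 0.05, and DESeq2 called 3 as higher and 4 as lower. Their summed level was 21471 to 30706 CPM in cashmere goats and 29540 to 55637 CPM in milk goats. The highest sum was that of the milk library of month 12, in which KLK5, KLK7, KLK8, KLK11 and KLK13 were at their lowest in CPM. In that library 79.8% of the sum came from 3 genes, the keratins KRT1 (21113 CPM) and KRT10 (15445 CPM) and the suprabasal gene SBSN (7855 CPM), and without these the sum was 11224 CPM there and 9447 CPM in the cashmere library of that month. The list was divided. Of its 43 genes 16 were highest of the 8 libraries there, where 21.2% of all tested genes were, and 5 were lowest, where 21.3% were. These 5 were IVL, CASP14, RPTN, TGM7 and PNPLA1, of which the cornified envelope protein IVL stood at 96.4 CPM against 962 CPM in the cashmere library of that month and the protease CASP14 at 60.3 against 194 CPM. At month 12, 17 of the 43 were lower in the milk library than in the cashmere library. The sum of 11 basal genes was 15242 to 22257 CPM over the 8 libraries (median log2 fold change -0.08, 0 passed with edgeR, 3 at an unadjusted p under 0.05, 2 lower with DESeq2).

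Hair follicle genes spanned a wider range. The 7 tested inner root sheath genes summed to 3404 CPM in the milk library of month 12 and 74472 CPM in the cashmere library of that month. In the milk library of month 9 they summed to 177882 CPM. Most of each sum was the single gene TCHH, at 2463, 65417 and 165648 CPM in that order. The 8 hair shaft keratins summed to 68.3 CPM in the first of these libraries, 1542 in the second and 2337 in the third. Their medians between the breeds were 1.23 and 1.44, and 0 genes passed in either list with edgeR or DESeq2, with 1 and 2 at an unadjusted p under 0.05. KRT6A, an inducible keratin of the outer root sheath, stood at 1126 CPM in cashmere goats and 239 CPM in milk goats at month 12 (1.08 ± 0.35, edgeR adjusted p = 0.111). In its list 0 of 2 genes passed, 1 was at an unadjusted p under 0.05, and DESeq2 called 1 (median 0.57).

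Of 18 sebaceous gland genes 1 was higher with edgeR (median 0.03, 2 at an unadjusted p under 0.05). Of 13 sweat gland genes 0 passed with edgeR (median 0.43, 3 at an unadjusted p under 0.05, 1 higher and 1 lower with DESeq2). Of 12 dermal fibroblast genes 1 was lower (median -0.16, 1 at an unadjusted p under 0.05). Of 10 endothelial genes 1 was lower (median -0.27, 2 at an unadjusted p under 0.05). Over all tested genes 1.47% were higher and 3.32% lower with edgeR. The genes called with edgeR were SCD (2.30-fold), a fatty acid desaturase, THY1 (-0.68 ± 0.14), a surface marker of fibroblasts, and ERG (-0.87 ± 0.14), an endothelial transcription factor. Of 3 tested neutrophil and mast cell genes 0 passed with edgeR or DESeq2 (median -0.49, 1 at an unadjusted p under 0.05), and the summed level of the 5 listed in the table was 8.09 to 32.8 CPM. No gene of these lists passed for the months with edgeR, where 0 of all genes did.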

How the data were processed

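Per the file headers and values, the authors deposited raw read counts per gene without normalization in 2 tables that use different gene sets, and FPKM, computed by the authors, for the genes of the first. Bowtie2 is named in the submitters' processing notes without role or version, while the sources used here name neither the genome build nor whether strand was used in counting the directional libraries. Overlapping genes and near-identical copies are therefore uncertain. Column names with a transliterated word for down were read as cashmere goats.

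The first table was tested with edgeR (version 4.0.16, R 4.3.3). After filterByExpr by breed 14085 of 18815 genes remained. TMM gave the scaling factors. Quasi-likelihood F tests took breed and the 4 months as terms (3 residual degrees of freedom). The contrast of months 6 and 9 with months 3 and 12 used breed as a term, and its interaction with breed was a further model. P-values were adjusted by Benjamini-Hochberg over all tested genes at a threshold of 0.05. Each SE is the log2 fold change over the square root of F. Log2 CPM used a prior count of 2.

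As a check of the code, the fits were run on simulated counts with large changes set in well-covered genes. That check does not measure how they perform on smaller changes, on rare genes or with the spread of these libraries. Alternatives were DESeq2 1.42.0, limma 3.58.1 on log2(FPKM + 1) or log2(FPKM + 0.1), RLE factors, library totals, no filter, the second table, no month term, and each library left out. In the breed fit, leaving out either library of a month removes that month from the breed difference, so both runs are nearly the same fit. The members, the 14 gene lists and the tests were chosen with earlier results of these data known. Genes were named by a rule (members, other kallikreins, list genes past the threshold or most abundant, and the 3 genes most alike per member), and some others after their values were seen. These are PRSS27, ST14, DSG1, DSC1, F2R, SPINK5, SPINK6, SLPI, SERPINB8, SBSN, IVL, CASP14, RPTN, TGM7, PNPLA1 and the flanking genes.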

Additional observations from a re-analysis of the deposited data

Results flagged for a closer look

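The 4 libraries of each breed were checked for a library far from the rest of its group for the 10 tested kallikreins. In 2 of 20 groups the gap exceeded Dixon's 95% limit, and chance gives about 1 in 20. KLK11 in the cashmere library of month 3 lay below the other 3, at 42.5 CPM. KLK9 in the cashmere library of month 6 lay above the other 3, at 4.82 CPM, on 40 reads.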

How the results depend on the processing

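The breed log2 fold change of each of the 6 kallikreins stayed positive under every alternative that gave it a value, from 0.35 (KLK11) to 1.67 (KLK10). KLK7 and KLK11 are not listed by symbol in the second table, so the median of the 6 has no value there. The median of all genes between the breeds was 0.03 with TMM, 0.14 with library totals, 0.16 with log2(FPKM + 1) and 0.23 with log2(FPKM + 0.1). The higher and lower calls were 207 and 468 with TMM, 302 and 317 with library totals, 1027 and 347 with log2(FPKM + 1), and 841 and 320 with log2(FPKM + 0.1).

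The 675 breed calls became 1691 with DESeq2, 1374 with log2(FPKM + 1), 1161 with log2(FPKM + 0.1), 1117 in the second table, and 346 without the month term that pairs the breeds (no replicate block). With 1 library left out they ranged from 0 to 869. The month effect had 0 calls, 536 with DESeq2, and 0 to 1180 with 1 library left out. Months 6 and 9 against months 3 and 12 had 0 calls, 30 without a filter, 288 with DESeq2, 14 with log2(FPKM + 1), and 0 to 242 with 1 library left out. The interaction had 0 calls, 41 without a filter, 100 with DESeq2, and 0 to 2 with 1 library left out. The cause of these changes was not tested. Alternatives for PRSS8, PRSS27, CDSN, F2RL1, F2R, SMPD1, KLK6, KLK12, SPINK5 and SPINK6 were added after seeing the data, as were library totals and FPKM for the month order, overlap and monthly ratios of the members. KLK8 and KLK13 rest on 7 to 113 reads per library, which limits their monthly ratios.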

Other observations

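The gene listed as KLK12 had 147 to 534 reads per library in the first count table and 2724 to 6606 in the second, where KLK7 and KLK11 are not listed by symbol. Whether the second table's entry holds reads of other kallikreins was not tested, so its value is not taken as that of KLK12 alone. That entry differed between the breeds by 0.20 ± 0.21 on the log2 scale (edgeR adjusted p = 0.566), against 0.77 ± 0.23 in the first. KLK1, the tissue kallikrein, is listed in the second table alone, with 0 to 7 reads per library.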
